A study of Mus musculus with 8 samples.

Results

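The genes described here encode MHC class I heavy chains, their light chain and the proteins that load them with peptide. The 10 genes were chosen by name, namely H2-D1, H2-K1, H2-T22, H2-T23, H2-M3, B2m, Tap1, Tap2, Tapbp and Nlrc5. All 10 were found among the 12823 rows of the count table, and all 10 passed the filter on low counts, which kept 12494 genes.

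RNA was sequenced from GFP+ mouse leukemia cells that carry MLL-AF9, an oncogenic fusion of the genes for MLL and AF9. New AML cells came from mouse bone marrow progenitors that were transduced with MLL-AF9 and GFP and transplanted into sublethally irradiated recipients, which developed leukemia after about 2 months. Aggressive AML cells are described as the remaining GFP+ cells of that leukemia after 5 serial transplantations into non-irradiated mice. The mice were C57BL/6J animals of 8 to 12 weeks. Each group had 4 libraries of GFP+ bone marrow cells labeled as biological replicates, and the mice of this comparison were male. Both groups carry MLL-AF9 and GFP, and normal cells were not part of the comparison.

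Total counts lay between 7805544 and 9697777 per library, and the 10 genes together held 0.618% to 0.768% of the counts in new AML and 0.481% to 0.553% in aggressive AML. The 4 Y-linked genes Ddx3y, Eif2s3y, Kdm5d and Uty had 2315 to 2574 summed counts in each new AML library and 0 in every aggressive AML library. The labels derive the aggressive AML cells from the new AML. Whether the 0 counts follow the origin of the cells or a change during passage was not tested, and for the other genes these cannot be told apart here. Of the 10 genes listed as markers of MLL-AF9 leukemia, including Hoxa9, Meis1, Mpo and Kit, all were tested, and their summed level was 4699 to 5622 CPM in new AML and 4801 to 5524 CPM in aggressive AML. Mpo was the most abundant of them, and 5 of the 10 were called in edgeR, against 18.4% of all tested genes. Hoxa10 and Itgam were lower (log2 change -0.59 and -0.61), and Meis1, Mef2c and Kit were higher (0.45, 0.62 and 0.65). CPM, the usual unit of sequencing counts relative to the library total, was computed with totals scaled by TMM (trimmed mean of M values). Neutrophil markers were called lower in aggressive AML for 8 of 9 listed genes, against 10.2% of all tested genes. Their summed level was 304 to 456 CPM in new AML and 145 to 196 CPM in aggressive AML. Of the 8, Retnlg and Mmp9 passed the filter on low counts through the new AML libraries (aggressive AML 0.23 to 1.04 and 0.13 to 1.14 CPM). The part of neutrophil markers in the results below was not tested.

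MHC class I molecules sit on the surface of almost every nucleated cell and show peptides from the cell's own proteins to CD8+ T cells. Natural killer cells read the same molecules through inhibitory receptors and respond to cells that lack them. A heavy chain folds together with beta-2 microglobulin in the endoplasmic reticulum, where the TAP transporter brings in peptides from the cytosol and tapasin holds the empty complex next to the transporter until a peptide fits. In C57BL/6 mice the classical heavy chains come from H2-K1 and H2-D1. Transcription of these genes is driven by NLRC5, which is recruited through factors bound to an X and Y box motif, and by interferon regulatory factors and NF-kappaB bound further upstream.

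The promoters are shown first because several of these genes share short motifs in the same order. RefSeq (GRCm38.p6) promoter windows, from 250 bases before to 50 bases after a transcription start, were present for 8 of the 10 genes, and none was available for Tap2 and Nlrc5. In the next lines, the window before the start is given 5′ to 3′ along the gene's strand, for H2-K1 at chr17:34000348-34000597 (minus strand) and for B2m at chr2:122147437-122147686 (plus strand). The H2-K1 window lies inside the RefSeq span of the gene, where GENCODE M21 annotates 0 exon bases. Capitals mark the letters of an interferon regulatory factor core (AANNGAAA), a kappaB motif (GGGANNNNCC), a CRE core (TGACG) or a CCAAT box (CCAAT) on either strand.
H2-K1: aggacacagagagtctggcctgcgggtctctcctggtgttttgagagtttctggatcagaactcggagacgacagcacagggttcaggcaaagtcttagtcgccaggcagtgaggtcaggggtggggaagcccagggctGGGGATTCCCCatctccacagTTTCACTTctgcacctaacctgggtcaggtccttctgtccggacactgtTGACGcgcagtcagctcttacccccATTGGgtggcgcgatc
B2m: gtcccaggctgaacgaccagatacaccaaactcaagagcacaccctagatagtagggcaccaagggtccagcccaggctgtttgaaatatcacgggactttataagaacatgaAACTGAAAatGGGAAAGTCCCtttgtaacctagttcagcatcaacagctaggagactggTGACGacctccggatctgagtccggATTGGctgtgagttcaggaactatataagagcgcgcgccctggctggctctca

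In 5 genes the kappaB and interferon regulatory factor letters lay close together, and the stretch from the first to the last of these letters is given in the next lines. The positions were chr17:35262923-35262951 (H2-D1, plus strand), chr17:34000430-34000458 (H2-K1, minus strand), chr17:36042926-36042956 (H2-T22, minus strand), chr17:37270108-37270140 (H2-M3, plus strand) and chr2:122147550-122147570 (B2m, plus strand). The H2-D1 stretch lies in the 5′ untranslated region of a longer GENCODE transcript. Capitals mark these motifs only, and kappaB matches on opposite strands overlap each other.
H2-D1: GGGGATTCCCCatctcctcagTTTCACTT
H2-K1: GGGGATTCCCCatctccacagTTTCACTT
H2-T22: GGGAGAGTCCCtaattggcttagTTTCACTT
H2-M3: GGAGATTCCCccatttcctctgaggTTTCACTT
B2m: AACTGAAAatGGGAAAGTCCC
The heavy chain genes had the kappaB letters before the interferon regulatory factor letters, and B2m had them in the opposite order. The stretches of H2-D1 and H2-K1 were identical at 28 of 29 bases, and their 250-base windows at 174 of 190 aligned bases (91.6%). The windows of the other pairs of genes were identical at 64.8% to 80.1% of aligned bases. H2-T23 had interferon regulatory factor letters without a kappaB match, Tap1 a CRE core without either, and in Tapbp the CCAAT box was the single motif found. In GENCODE M21 all 250 bases of the Tap1 and Tapbp windows, and 154 of those of H2-T23, lie in annotated exons. Motifs outside the windows were not searched. Of 32851 RefSeq promoter windows of the same length, 23.9% held the interferon regulatory factor core, 20.7% the kappaB motif, 20.8% the CRE core and 37.4% the CCAAT box, against 6, 5, 6 and 8 of the 8 genes with a window. A match is a description of letters and was not tested for binding.

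In the comparison of aggressive AML with new AML, which asked how the leukemia cells changed during passage in immunologically normal mice, 5 of the 10 genes fell and 0 rose. The called genes were H2-D1, H2-T23, B2m, Tap1 and Tapbp, while H2-T22, H2-M3, H2-K1, Nlrc5 and Tap2 did not pass the test. Among the called genes the smallest change was that of Tap1, which fell by 24.2%, and Tapbp fell by 30.7%. Of all tested genes, the edgeR quasi-likelihood test called 10.2% lower and 8.15% higher (18.4% in either direction) at a threshold of 0.05 on the adjusted p. An unadjusted p under 0.05 was found for 8 of the 10 genes and for 32.6% of all tested genes. The groups did not overlap for 5 of the 10 genes, each of them lower, whereas 12.0% of all tested genes were lower without overlap and 9.76% higher. On the log2 scale the fitted change (aggressive AML over new AML) was below 0 for all 10 genes, with a median of -0.39 beside 0.00 for all tested genes. In bulk RNA, fewer cells with high class I expression and less class I RNA in each cell cannot be told apart.

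**Figure D1:**
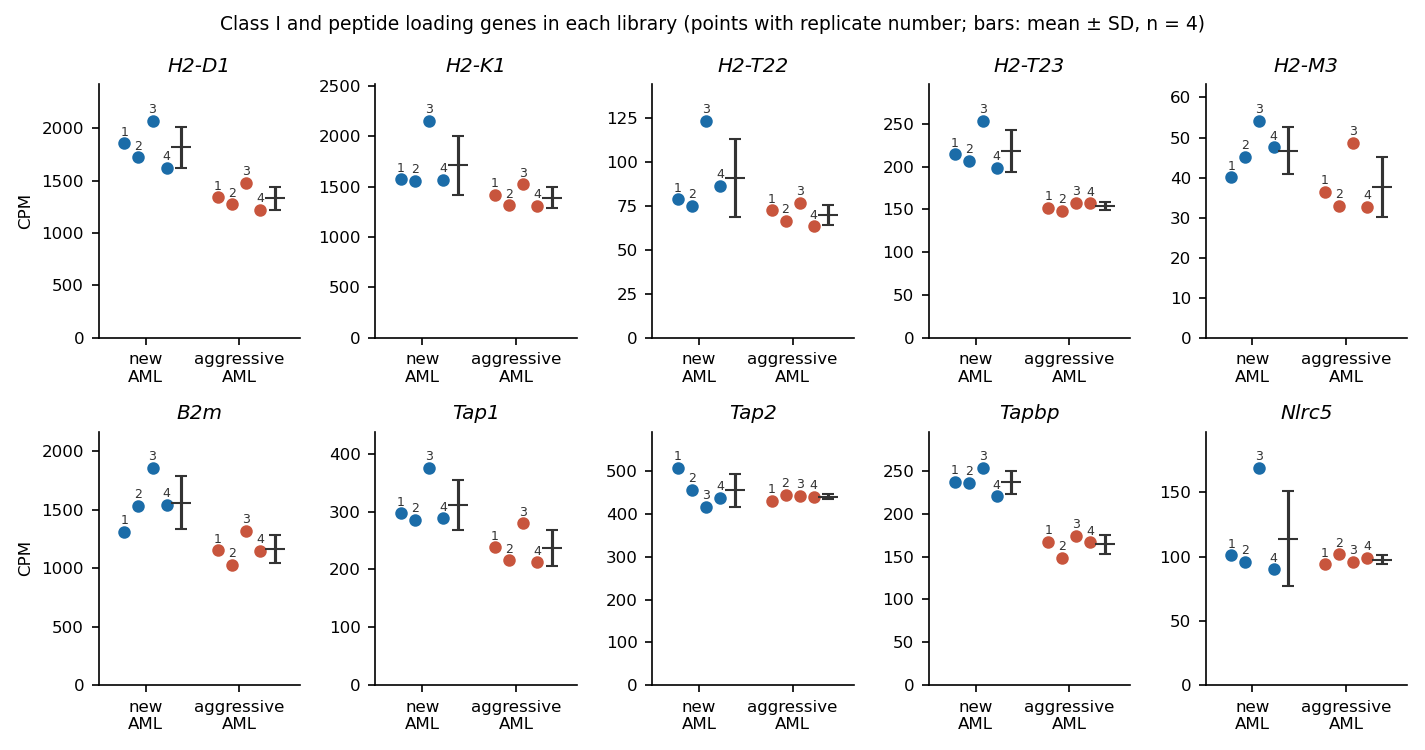
Expression of each of the 10 genes in CPM (y axis, from 0) in the 4 new AML libraries (blue) and the 4 aggressive AML libraries (red), with the replicate number at each point and the mean ± SD beside it. New AML replicate 3 is the highest point for 9 genes and the lowest of its group for Tap2, and the groups do not overlap for H2-D1, H2-K1, H2-T23, Tap1 and Tapbp.

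Among the classical heavy chains, H2-D1 (Entrez gene 14964, chr17:35263094-35267497, plus strand) measured 1856, 1722, 2073 and 1622 CPM in new AML replicates 1 to 4 and 1343, 1276, 1478 and 1224 CPM in aggressive AML replicates 1 to 4. Every aggressive AML library lay under every new AML library. H2-D1 fell by 0.45 on the log2 scale (SE 0.0859, adjusted p = 0.00202), with a 95% interval from -0.63 to -0.27. H2-K1 (Entrez gene 14972, chr17:33996012-34000619, minus strand) measured 1573, 1561, 2157 and 1568 CPM in new AML and 1418, 1317, 1525 and 1308 CPM in aggressive AML. Its groups did not overlap either, but the lowest new AML and the highest aggressive AML library were close, and new AML replicate 3 stood 1.38 times above the median of the other 3. For H2-K1 the log2 change was -0.30 (SE 0.101, adjusted p = 0.0513). It was -0.17 without new AML replicate 3 (adjusted p = 0.119) and -0.34 without aggressive AML replicate 3, where it passed the threshold (adjusted p = 0.0387). H2-K1 passed the threshold in 6 of 18 alternative analyses, whereas H2-D1 passed it in 18 of 18.

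H2-D1 and H2-K1 had 10759 or more counts in each library, so that counting error was small beside the spread between replicates. Their transcripts are similar, and 14.3% of the 50-base stretches of H2-D1 and 8.11% of those of H2-K1 occurred in another annotated gene. Reads from such stretches cannot be assigned to 1 gene with certainty. H2-D1 supplied 44.5% to 49.3% of the counts of the 5 heavy chain genes in new AML and 43.9% to 45.0% in aggressive AML.

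The non-classical heavy chain H2-T23 encodes Qa-1, which is known to engage the inhibitory receptor NKG2A on natural killer cells. H2-T23 (Entrez gene 15040, chr17:36029977-36032701, minus strand) measured 214, 207, 254 and 198 CPM in new AML and 152, 148, 158 and 157 CPM in aggressive AML. The aggressive AML libraries lay within 10 CPM of each other and below every new AML library. H2-T23 fell by 0.51 on the log2 scale (SE 0.0827, adjusted p = 0.000642), and 15.0% of its 50-base stretches were shared with other genes.

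H2-T22, a ligand of some gamma-delta T cells, and H2-M3, which presents N-formylated peptides, were expressed at lower levels. H2-T22 (Entrez gene 15039, chr17:36037128-36042742, minus strand) measured 78.8, 74.9, 123 and 86.6 CPM in new AML and 72.4, 66.7, 76.7 and 63.4 CPM in aggressive AML. The groups overlapped, and new AML replicate 3 stood 1.57 times above the median of the other 3. For H2-T22 the log2 change was -0.38 (SE 0.134, adjusted p = 0.0596). It was -0.20 without new AML replicate 3 (adjusted p = 0.155), and -0.47 without new AML replicate 2, where it passed the threshold (adjusted p = 0.0402). Of its 50-base stretches 35.8% occurred in another gene, mostly H2-T10, and 1003 bases of its exons overlap A930015D03Rik on the other strand. H2-M3 (Entrez gene 14991, chr17:37270234-37274485, plus strand) measured 40.0, 45.2, 54.2 and 47.6 CPM in new AML and 36.4, 33.0, 48.7 and 32.7 CPM in aggressive AML. Aggressive AML replicate 3 lay inside the range of new AML. In H2-M3 the log2 change was -0.31 (SE 0.135, adjusted p = 0.121), and without aggressive AML replicate 3 it was -0.45 and passed the threshold (adjusted p = 0.0114).

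The light chain gene B2m (Entrez gene 12010, chr2:122147687-122153082, plus strand) lies on another chromosome than the heavy chains. It measured 1309.9, 1533, 1856 and 1539 CPM in new AML and 1152, 1029, 1317 and 1148 CPM in aggressive AML. The groups met at one point, where aggressive AML replicate 3 was slightly above new AML replicate 1. B2m fell by 0.43 on the log2 scale (SE 0.100, adjusted p = 0.00822), and 0 of its 50-base stretches were shared with another gene. Without new AML replicate 3 the value was -0.33 (adjusted p = 0.0209), and the call held in 18 of 18 alternatives.

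Of the 3 loading genes, Tapbp and Tap1 fell and Tap2 did not pass the test. Tapbp, which encodes tapasin (Entrez gene 21356, chr17:33919478-33929290, plus strand), measured 237, 236, 253 and 220.1 CPM in new AML and 167, 149, 174 and 166 CPM in aggressive AML. The gap between the groups was larger than the range of either group. Tapbp fell by 0.53 on the log2 scale (SE 0.0753, adjusted p = 0.000192), with a 95% interval from -0.69 to -0.37. Its exons overlap those of Gm19412 over 904 bases and those of Zbtb22 over 149 bases.

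Tap1 and Tap2 encode the subunits of the peptide transporter. Tap1 (Entrez gene 21354, chr17:34187556-34197225, plus strand) measured 297, 286, 376 and 289 CPM in new AML and 238, 216, 279.9 and 212 CPM in aggressive AML. Aggressive AML replicate 3 came close to the lowest new AML library, and replicate 3 was the highest library in both groups. Tap1 fell by 0.40 on the log2 scale (SE 0.104, adjusted p = 0.0149), but leaving out aggressive AML replicate 2 ended the call (adjusted p = 0.0526). Tap2 (Entrez gene 21355, chr17:34204479-34216321, plus strand) measured 508, 457, 417 and 439 CPM in new AML and 431, 445, 443 and 441 CPM in aggressive AML. The aggressive AML values lay inside the range of new AML, and new AML replicate 3, the highest library for the other 9 genes, was the lowest of its group. For Tap2 the log2 change was -0.05 (95% interval -0.20 to 0.10, adjusted p = 0.680), and the sign turned without new AML replicate 1 (0.0063). Its exons overlap those of Gm15821 over 533 bases and those of Gm20496 over 165 bases.

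Nlrc5, the transactivator of class I genes (Entrez gene 434341, chr8:94434335-94527272, plus strand), measured 101, 96.1, 169 and 89.9 CPM in new AML and 94.0, 102, 95.8 and 99.1 CPM in aggressive AML. Apart from new AML replicate 3, the libraries of both groups lay between 89.9 and 102 CPM. In the fit its log2 change was -0.22 (95% interval -0.55 to 0.11, adjusted p = 0.340), and it was 0.03 without new AML replicate 3 (adjusted p = 0.839).

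**Figure D2:**
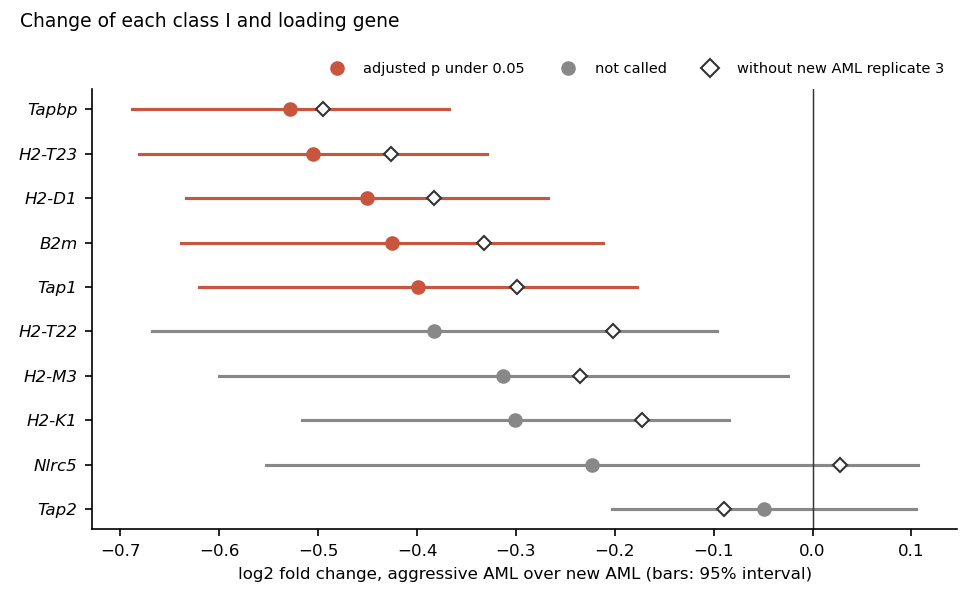
Log2 fold change of each gene (x axis, aggressive AML over new AML) with its 95% interval from edgeR, in red where the adjusted p was under 0.05 and in gray otherwise, and the value without new AML replicate 3 as an open diamond. Leaving out that library moves 9 of the 10 values toward 0 or past it, and Tap2 away from 0.

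Replicate 3 stood out in both groups. New AML replicate 3 was the highest of the 8 libraries for 9 of the 10 genes, while it was the highest for 11.3% of all tested genes. In aggressive AML, replicate 3 was the highest of its group for 8 of the 10 genes, against 30.2% of all tested genes. The same 5 genes were called without new AML replicate 3, and the median log2 change over the 10 genes was -0.27. Over the 18 alternatives, between 4 and 7 of the 10 genes were called lower.

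Levels of different genes were compared per kilobase of exon, in CPM per kb. In new AML the order was B2m (1814 ± 261, SD, n = 4), H2-D1 (705 ± 75.7), H2-K1 (584 ± 100.4), Tap2 (120.4 ± 10.2), H2-T23 (75.5 ± 8.49), Tapbp (65.2 ± 3.75), Tap1 (57.0 ± 7.82), H2-M3 (32.5 ± 4.09), H2-T22 (26.6 ± 6.51) and Nlrc5 (13.4 ± 4.35). The ranges over the 4 libraries overlapped between H2-D1 and H2-K1, between H2-T23 and Tapbp, between Tapbp and Tap1, and between H2-M3 and H2-T22. Within each new AML library, however, the gene named first in each pair was the higher. This order is by the length of all exons. With the length of the longest transcript instead, H2-K1 (915 CPM per kb) came before H2-D1 (865 CPM per kb). In aggressive AML the order by all exons was the same, at 1351 ± 138 CPM per kb for B2m, 516 ± 42.6 for H2-D1, 474 ± 34.6 for H2-K1, 116 ± 1.60 for Tap2 and 11.5 ± 0.410 for Nlrc5. Whether B2m exceeded the sum of the 5 heavy chain genes depended on the length used. By all exons it did in every library (1523 against 1380 CPM per kb in new AML replicate 1), whereas by the longest transcript it was below the sum in 7 of the 8 libraries (1523 against 1857 CPM per kb in the same library) and above it in new AML replicate 4 (1790.0 against 1744 CPM per kb).

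Whether the genes moved by different amounts was examined with ratios of counts within a library, which do not depend on scaling. The count ratio of Tapbp to Tap2 was 0.467, 0.517, 0.607 and 0.502 in new AML and 0.387, 0.334, 0.393 and 0.378 in aggressive AML, without overlap. The difference of the mean log2 ratios was -0.48, and the exact two-sided permutation test gave p = 0.0286, the lowest value possible with 70 choices of libraries, and p = 0.143 after adjustment over the 5 ratios examined. The ratio of Tap1 to Tap2 was 0.585 to 0.900 in new AML and 0.482 to 0.632 in aggressive AML, a log2 difference of -0.35 (exact permutation p = 0.0857, adjusted p = 0.143). No ratio passed the threshold after adjustment, for which 3 of the 5 ratios would have needed the smallest p.

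The ratio of B2m to H2-D1 was 0.706 to 0.949 in new AML and 0.806 to 0.938 in aggressive AML, with a log2 difference of 0.03 (exact permutation p = 0.857) whose sign turned when 1 library was left out (-0.064 without new AML replicate 1). The ratio of H2-D1 to H2-K1 was 1.18, 1.10, 0.961 and 1.03 in new AML and 0.947, 0.969, 0.969 and 0.936 in aggressive AML. Aggressive AML libraries lay below 1 and within a narrow range, and new AML replicate 3 fell among them. The log2 difference was -0.16 (exact permutation p = 0.0857, adjusted p = 0.143). For B2m to H2-K1 the log2 difference was -0.13 (exact permutation p = 0.171, adjusted p = 0.214).

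**Figure D3:**
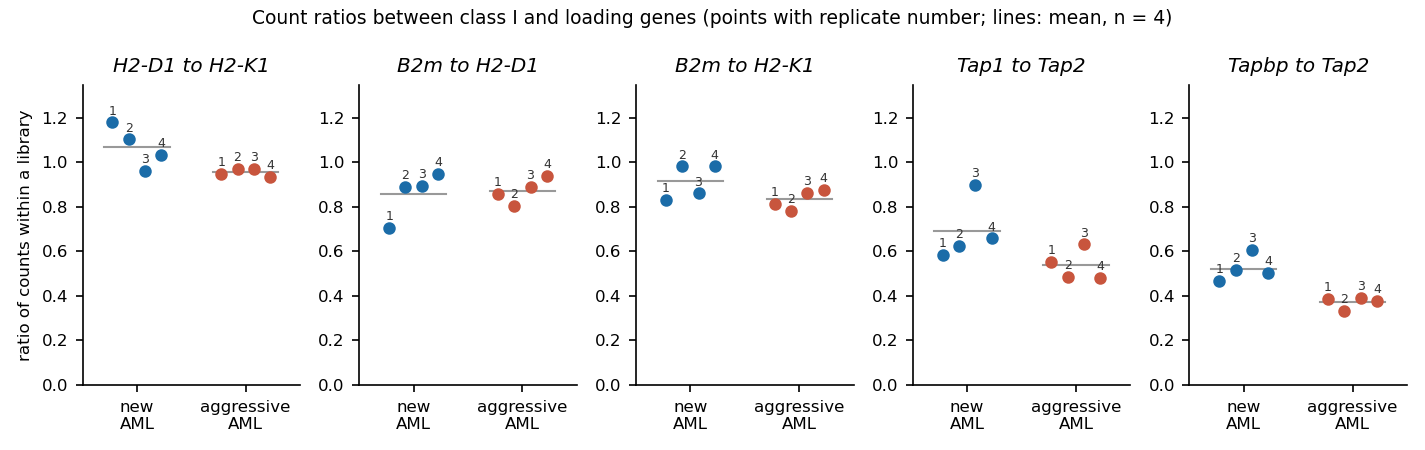
Ratio of the counts of 2 genes within each library (y axis, from 0), with new AML in blue, aggressive AML in red, the replicate number at each point and the mean of each group as a line. The groups are apart for Tapbp to Tap2 (0.467 to 0.607 against 0.334 to 0.393) and overlap in the other 4 ratios.

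Other genes of the pathway were described by lists of their roles. The counts of each list stand beside 10.2% of all tested genes called lower and 8.15% called higher. Among other class I and class I-like heavy chains, 2 of 10 tested genes were called lower and 0 higher, with a median log2 change of -0.34. The count was 1 without new AML replicate 3 or 4, and 4 without aggressive AML replicate 3. Without new AML replicate 3 the median was -0.21. Fcgrt, the heavy chain of the neonatal Fc receptor, which also pairs with beta-2 microglobulin, fell from 8.50 ± 2.31 to 2.83 ± 0.780 CPM (log2 change -1.58, adjusted p = 0.000831). H2-T24, a non-classical heavy chain, fell from 25.2 ± 5.51 to 16.3 ± 3.02 CPM (log2 change -0.62, adjusted p = 0.0191), and it was not called without new AML replicate 3 (adjusted p = 0.0599). The most abundant genes of this list, H2-Q4, H2-Q6 and H2-Q7, were not called (log2 change -0.26, -0.02 and -0.32). Without new AML replicate 3 their values were -0.09, 0.20 and 0.01. In this list replicate 3 of aggressive AML was the highest of its group for 8 of 10 genes, as for the 10 genes described.

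Chaperones and enzymes that fold and edit class I molecules were called in neither direction in edgeR. Of the 10 tested genes 0 were called and 1 had an unadjusted p under 0.05, and limma with array weights called 1 of them lower. Their median log2 change was -0.09. The most abundant, the lectin chaperone Calr, had 2467, 2362, 2484 and 2081 CPM in new AML and 2394, 2086, 2116 and 2007 CPM in aggressive AML (log2 change -0.13, adjusted p = 0.286). Peptide supply, by immunoproteasome subunits and peptidases, was called in 0 of 11 tested genes, with 1 at an unadjusted p under 0.05 and a median of -0.05. DESeq2 and upper quartile scaling each called 1 gene of this list higher. The immunoproteasome subunit Psmb8, which lies between Tap1 and Tap2, had 375 to 485 CPM in new AML and 365 to 431 CPM in aggressive AML (log2 change -0.08, adjusted p = 0.569).

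Psmb9, chosen after its values were seen, starts next to Tap1 on the opposite strand, and the exons of both overlap over 212 bases. It had 180.1 to 256 CPM in new AML and 155 to 194 CPM in aggressive AML, and did not pass the test (log2 change -0.22, adjusted p = 0.200). The count ratio of Tap1 to Psmb9 was 1.47 to 1.59 in new AML and 1.23 to 1.50 in aggressive AML. How reads in the shared stretch were assigned is not given in the sources used here.

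Transcription factors of class I genes were called lower in 6 of 15 tested genes (40.0%) and higher in 0, and their median log2 change was -0.27. The count was 4 without aggressive AML replicate 2 or 3, and 5 without new AML replicate 3. Nfya, the subunit A of the CCAAT-binding factor NF-Y, fell from 209 ± 15.7 to 138 ± 25.1 CPM (log2 change -0.60, adjusted p = 0.0017). Irf8, a regulator of myeloid cell fate, fell from 626 ± 33.2 to 432 ± 54.1 CPM (log2 change -0.54, adjusted p = 0.000657), and Irf1 from 83.0 ± 21.1 to 57.4 ± 8.66 CPM (log2 change -0.53, adjusted p = 0.0229, and 0.0563 without new AML replicate 3). In aggressive AML, replicate 3 was the lowest of its group for 11 of these 15 genes, against 33.1% of all tested genes, whereas the class I genes were mostly highest there.

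Interferon response reporters, which were listed to show the activity of the interferon pathway, were called lower in 7 of 10 tested genes with a median of -1.33, and in 4 without new AML replicate 3, with a median of -0.76. Without aggressive AML replicate 2 the count was 4 as well. Ifit1, 1 of the 7, passed the filter on low counts through the new AML libraries (aggressive AML 0.82 to 1.08 CPM). Usp18, the most changed, had 12.8, 7.97, 22.9 and 14.8 CPM in new AML and 2.77, 3.18, 1.30 and 4.32 CPM in aggressive AML (log2 change -2.32, adjusted p = 0.000208). Irf7 fell from 26.3 ± 10.8 to 7.28 ± 0.558 CPM and Oasl2 from 22.5 ± 13.0 to 6.76 ± 1.11 CPM. Gbp2 had 4.31, 3.57, 47.6 and 6.35 CPM in new AML and 1.20, 3.77, 3.50 and 4.55 CPM in aggressive AML, so that its value rested on new AML replicate 3 (log2 change -2.24, adjusted p = 0.0404, and -0.54 without that library, adjusted p = 0.328). New AML replicate 3 was the highest library for 9 of the 10 reporters, as it was for 9 of the 10 class I and loading genes. It was also the highest for 7 of 10 folding genes, 6 of 10 other heavy chains and 6 of 11 peptide supply genes. For transcription factors, export and class II genes the counts were 3 of 15, 2 of 10 and 1 of 8, against 11.3% of all tested genes.

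Genes of class I export, turnover and surface loss were called lower in 3 of 10 tested genes and higher in 0, with a median of -0.10, and the count was 1 without new AML replicate 2. Syvn1, a ubiquitin ligase of the endoplasmic reticulum, fell from 84.6 ± 8.90 to 60.0 ± 12.2 CPM (log2 change -0.49, adjusted p = 0.0165). Tmem127 and Susd6, membrane proteins that are known to direct class I molecules to degradation, had log2 changes of -0.33 each (adjusted p = 0.0275 and 0.0136). Class II presentation was called lower in 2 of 8 tested genes with a median of -0.44. Cd74, the invariant chain of class II molecules, fell from 11.8 ± 4.18 to 1.13 ± 0.885 CPM, and passed the filter on low counts through the new AML libraries. H2-DMa, which exchanges class II peptides, fell from 102 ± 5.12 to 63.2 ± 7.63 CPM (log2 change -0.69, adjusted p = 0.000126).

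**Figure D4:**
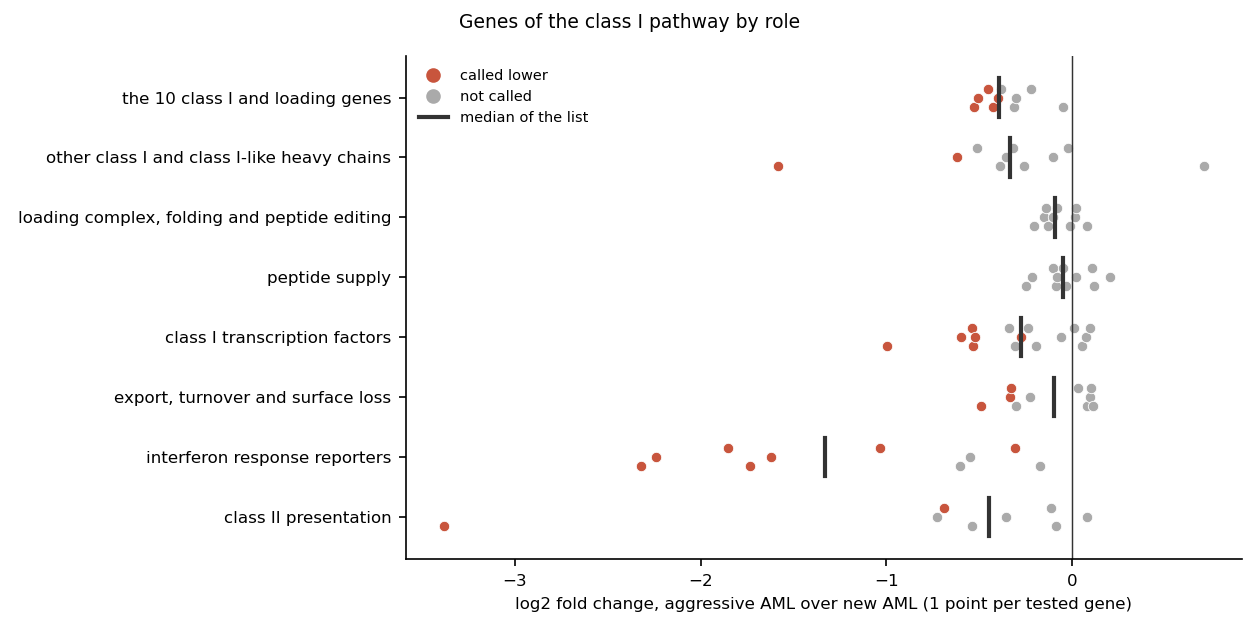
Log2 fold change (x axis, aggressive AML over new AML) of every tested gene of 8 lists, with genes called lower in red, genes not called in gray and the median of each list as a black bar. Points of the 10 class I and loading genes lie between -0.53 and -0.05, the folding and peptide supply lists center near 0, and the interferon response reporters reach -2.32.

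Other blood cells could bring class I RNA into the libraries, so their markers are given beside these results. Cd3e, Cd4, Cd8a, Ms4a1, Ncr1, Klrb1c and C1qa were not among the genes analyzed here, and the table leaves out genes of low expression. The listed T cell markers that were present, Cd5 and Lck, summed to 5.35 to 6.77 CPM in new AML and 7.77 to 10.2 CPM in aggressive AML. B cell markers summed to 40.2 to 45.4 and 30.6 to 34.0 CPM, mostly from Cd79b, natural killer cell markers to 15.0 to 27.8 and 25.8 to 33.0 CPM, and macrophage markers to 82.9 to 145.5 and 56.0 to 90.8 CPM. Of the dendritic cell list 2 of 3 tested genes were called lower, of the erythroid list 1 of 5 and of the macrophage list 1 of 4. Flt3 of the dendritic cell list was not called (log2 change 0.31). Of 2 tested B cell markers, Cd22 was called lower (log2 change -4.83). Cd5, of 2 tested T cell markers, and Nkg7, of 2 tested natural killer cell markers, were called higher (log2 change 0.91 and 0.70). Siglech of the dendritic cell list and Cd22 passed the filter on low counts through the new AML libraries alone. Of all tested genes 10.2% were called lower and 8.15% higher. Pecam1, the single tested gene of the stroma and endothelium list, was not called (adjusted p = 0.0902). The part of these cells in the class I values was not tested.

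Of the 10 genes, 8 lie in the H2 region of chromosome 17, which spans 3.36 Mb from Tapbp to H2-M3 (chr17:33919478-37274485). The region held 114 tested genes. Outside the pathway lists, 13 of 91 tested genes (14.3%) were called lower and 6 (6.59%) higher, against 10.2% and 8.15% of all tested genes. The median log2 change of the 91 genes was -0.05. Of the 8 described genes 4 were called lower, and of 15 other listed genes 2. Without new AML replicate 2 the number of genes of the region other than the 8 that were called, in either direction, was 11 in place of 21. The largest changes outside the lists were those of the heat shock genes Hspa1b (27.6 ± 20.8 to 3.42 ± 1.45 CPM, log2 change -3.01, adjusted p = 0.000349) and Hspa1a (13.1 ± 12.8 to 2.35 ± 0.342 CPM, log2 change -2.48, adjusted p = 0.00663). The 2 heat shock genes are near-identical copies, and their counts are uncertain for that reason. Gm31560 rose from 9.35 ± 0.932 to 20.8 ± 1.55 CPM (log2 change 1.15, adjusted p = 4.25e-05).

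**Figure D5:**
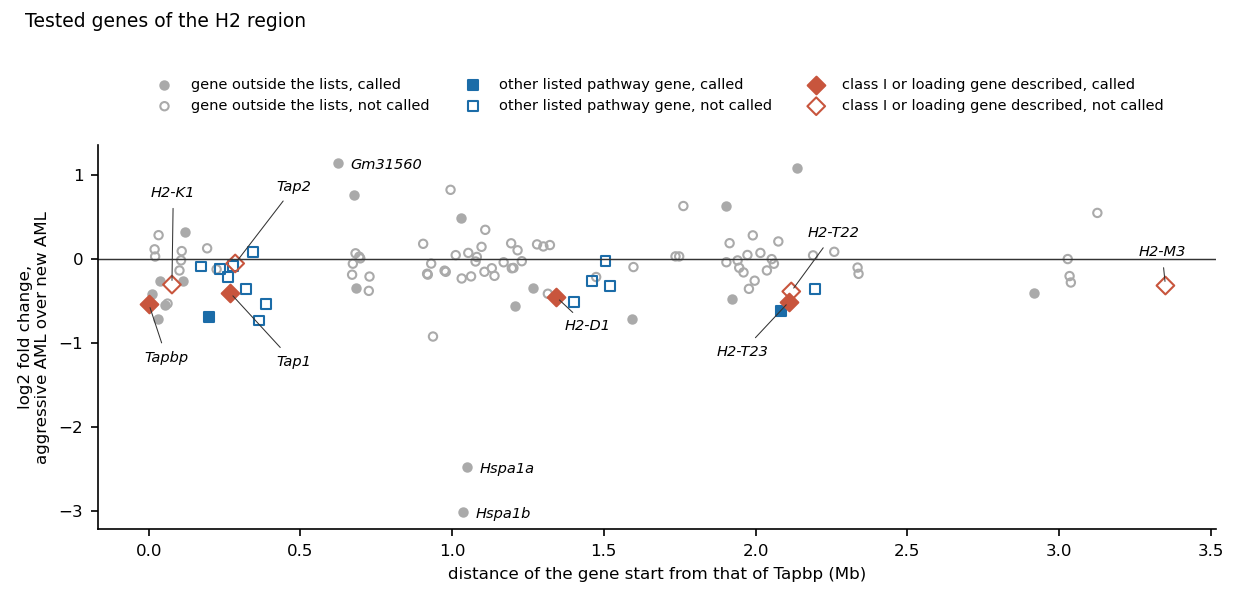
Log2 fold change (y axis, aggressive AML over new AML) of the 114 tested genes of the H2 region against the distance of their start from that of Tapbp in Mb (x axis), with filled symbols for called genes. The 8 class I and loading genes (diamonds) lie below 0, among 91 genes outside the lists (circles) with a median of -0.05.

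The genes whose profile over the 8 libraries was most like the mean profile of the 10 genes were Trafd1, Shisa5, 1600002K03Rik, Ifi30 and Chid1. Likeness was measured as the root mean square difference of centered log2(CPM + 1) values, which was 0.0775 to 0.0826 for these 5. Among the 10 genes themselves it ran from 0.0481 for H2-K1 and 0.0605 for Tap1 to 0.191 for Nlrc5 and 0.229 for Tap2. Each of the 10 genes is part of the mean profile, which makes its own value smaller. B2m, H2-T23, H2-T22, Tapbp and H2-M3 (0.0903 to 0.125) also lay farther from it than the 5 outside genes. The 5 outside genes were picked as the closest of all tested genes outside the lists, so that their small differences follow from that choice. Trafd1, a zinc finger protein gene, had 121 ± 8.76 CPM in new AML and 91.1 ± 8.49 CPM in aggressive AML, and Ifi30, a thiol reductase of antigen processing, 113 ± 17.4 and 86.8 ± 13.5 CPM. None of the 5 lies on chromosome 17.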

How the data were processed

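Poly(A) RNA of GFP+ leukemia cells was sequenced in paired ends. The authors aligned the reads to mm10 (GRCm38) with HISAT2, obtained gene counts with Rsubread and removed genes of less than 1 CPM, and the annotation and strand setting are not given in the sources used here. Although the deposited file carries CPM in its name, its values are whole numbers and library totals differ, and they were used as raw counts. Groups and replicate numbers came from the sample titles. The labels give no batch or date, and a batch that follows the group cannot be told apart from the group.

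Genes that reached 1 CPM in 4 or more of the 8 libraries were tested with edgeR 4.0.16 (quasi-likelihood, R 4.3.3) with TMM scaling and the group alone as a term, two-sided, with Benjamini-Hochberg adjustment over 12494 genes and a threshold of 0.05. The script was tested on simulated counts. Ratios were compared with an exact permutation test over 70 choices. Alternatives were DESeq2 (1.42.0), limma (3.58.1) with and without array weights, other scalings, no filter and a filter of 5 CPM, a replicate block, offsets for GC content and length, and leaving out each library. P-values measure the spread between libraries labeled as biological replicates, which the study gives as male mice. Both groups are described as stages of the same leukemia, so the spread between independently generated leukemias was not measured.

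Exon lengths, overlaps and shared 50-base stretches came from GENCODE M21 and promoters from RefSeq, both on GRCm38. Of the table's names, 12029 matched RefSeq directly and 455 through an older symbol. All 10 genes are named, and of each list the called genes, at most 4 with the largest change, or the most abundant gene where 0 were called. A gene that this rule names in the list of transcription factors is not reported here. The 5 most alike genes and 3 called neighbors of the H2 region with the largest change are also named, and further genes, such as Psmb9, were picked once their values were known. The genes and lists were chosen with earlier results of these data known.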

Additional observations from a re-analysis of the deposited data

Results flagged for a closer look

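New AML replicate 3 stood apart from the other 3 libraries of its group in 3 of 30 groups of 4 values that were examined with Dixon's test at the 95% level, which by chance marks about 1 in 20 groups. H2-K1 measured 2157 CPM there, with a gap to the next library of 0.979 of the range of the group. Tap1 measured 376 CPM (gap 0.877 of the range) and Nlrc5 169 CPM (gap 0.860 of the range). In aggressive AML, 0 values of the 10 genes and the 5 ratios stood apart by this test.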

How the results depend on the processing

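Of the 10 genes, H2-D1, H2-T23, B2m and Tapbp were called lower in each of 18 alternatives. Tap1 was not called without aggressive AML replicate 2, H2-K1 was called in 6 alternatives, H2-T22 in 3, H2-M3 in 2 and Tap2 and Nlrc5 in 0. The sign turned for Tap2 without new AML replicate 1 (range over left-out libraries -0.090 to 0.0063) and with GC content and length trends removed (0.0062), for Nlrc5 without new AML replicate 3 (range -0.32 to 0.028), and for the ratio of B2m to H2-D1 without new AML replicate 1 or aggressive AML replicate 4 (range -0.064 to 0.079). Leaving out 1 library gave 1466 to 2324 called genes over the whole table (lowest without new AML replicate 2), 1 to 4 other class I genes called lower, 1 to 3 export genes, 4 to 7 interferon response reporters and 11 to 19 H2 region neighbors (21 with every library). Array weights gave 1 folding gene called lower. In the peptide supply list 1 gene was called higher by DESeq2, with upper quartile scaling and with the filter of 5 CPM, and 2 with GC content and length trends removed. The filter of 5 CPM also gave 4 reporters called lower, where fewer of them were tested. Equal replicate numbers did not deviate together (correlations 0.0967, -0.0399, -0.0654 and 0.204). With the replicate block 7 of the 10 genes were called lower, among them H2-K1 and H2-T22, and 4 other class I genes. Causes of these moves were not tested. The lowest count of any of the 10 genes in a library was 280. In aggressive AML the replicate spread of Tap2 was small (SD 6.04 CPM at a mean of 440 CPM). How much replicate spread and depth each limited the comparison was not separated for each gene.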
